A study of Mus musculus with 11 samples.

Results

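The goblet mucus genes described here are 10 genes chosen by name: Muc2, Fcgbp, Clca1, Zg16, Tff3, Agr2, Spdef, Spink4, Muc4 and Muc13. All 10 were found among the 35683 genes of the deposited table, and all 10 passed the filter on low values. The genes were not picked by a measured difference between the groups, but earlier results of these data were known when they were chosen. RNA came from the full wall of the colon of mice at 2 weeks of age, so muscle, connective tissue and mucosa were measured together. The groups were 6 Tnfr1-/- mice, homozygous for loss of the TNF receptor TNFR1 (gene Tnfrsf1a), and 5 wild-type (WT) mice. No driver, tissue-restricted allele or treatment is named for either group. Per its title, the study asked how loss of TNFR1 acts on mice early in life. The labels give no strain, sex, litter, cage or batch.

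Goblet cells are secretory cells of the intestinal lining that release mucus onto its surface. In the colon the gel-forming mucin MUC2 is folded in the endoplasmic reticulum, coated with O-linked sugars in the Golgi, packed into granules and released as a polymer. It then unfolds into a gel that keeps bacteria away from the epithelium. FCGBP, CLCA1 and ZG16 are secreted with it as parts of the gel. Membrane-bound mucins such as MUC4 and MUC13 stay anchored to the cell surface and are not restricted to goblet cells.

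The genes are on 6 chromosomes in mouse build GRCm38 (GENCODE M21). Muc2 (ENSMUSG00000025515) lies at chr7:141690340-141754693, Fcgbp at chr7:28071236-28120862, Clca1 at chr3:145003817-145032776, Zg16 at chr7:127050156-127087328 and Tff3 at chr17:31125306-31129646. Agr2 lies at chr12:35992907-36004087, Spdef at chr17:27714352-27728955, Spink4 at chr4:40920052-40931395, Muc4 at chr16:32735886-32782391 and Muc13 at chr16:33794037-33819934. The table lists Muc2 under 2 Ensembl gene IDs whose 8 transcripts have equal values in every library, so the levels of Muc2 given here are sums over both IDs, while its fold change, p-value and transcript values are those of this ID.

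Values are abundances, that is TPM, a level corrected for transcript length and library size, scaled by the size factor of the library and summed over the transcripts of a gene. The table holds no read total per library. From the authors' deposited means, a typical library had about 1061 reads for Muc4, the least of the 10 genes, and about 45999 for Fcgbp, the most. Counting error alone then gives a 95% range of 6.02% to each side for Muc4 and of 0.914% for Fcgbp. As a check of the labels, Tnfrsf1a was at 22.4 ± 3.54 in Tnfr1-/- colons (SD, n = 6) and 67.1 ± 5.04 in WT colons (SD, n = 5), with a log2 fold change of -1.57 (SE 0.10, limma adjusted p = 8.52e-05). Nothing in the labels says whether the libraries of a group came from separate litters, so p-values measure the spread between these mice only. In whole tissue, fewer goblet cells and less RNA per goblet cell cannot be told apart.

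The 10 goblet mucus genes did not differ detectably between Tnfr1-/- and WT colons. By limma, 0 of 10 were called at a Benjamini-Hochberg adjusted p under 0.05, where 0.00663% of the 15079 genes tested were called (Tnfrsf1a alone). At an unadjusted p under 0.05 there were also 0 of 10, against 9.37% of all genes. Groups overlapped for all 10, and 1.49% of all genes had groups that did not. On the log2 scale 8 of the 10 were lower and 2 higher in Tnfr1-/-, with a median log2 fold change of -0.14, while 52.1% of all genes were lower, with a median of -0.0061. Limma adjusted p-values of the 10 ran from 0.724 for Spink4 to 0.978 for Fcgbp. For 8 of the 10, all but Zg16 and Muc4, the 95% interval kept within a 2-fold change in each direction. Without WT replicates 1 and 2, which were highest in many of these genes, the median was 0.12 and 5 of the 8 lower genes (Muc2, Fcgbp, Agr2, Muc4 and Muc13) were higher in Tnfr1-/-. Leaving out the highest libraries of a group raises such a difference by construction.

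**Figure D1:**
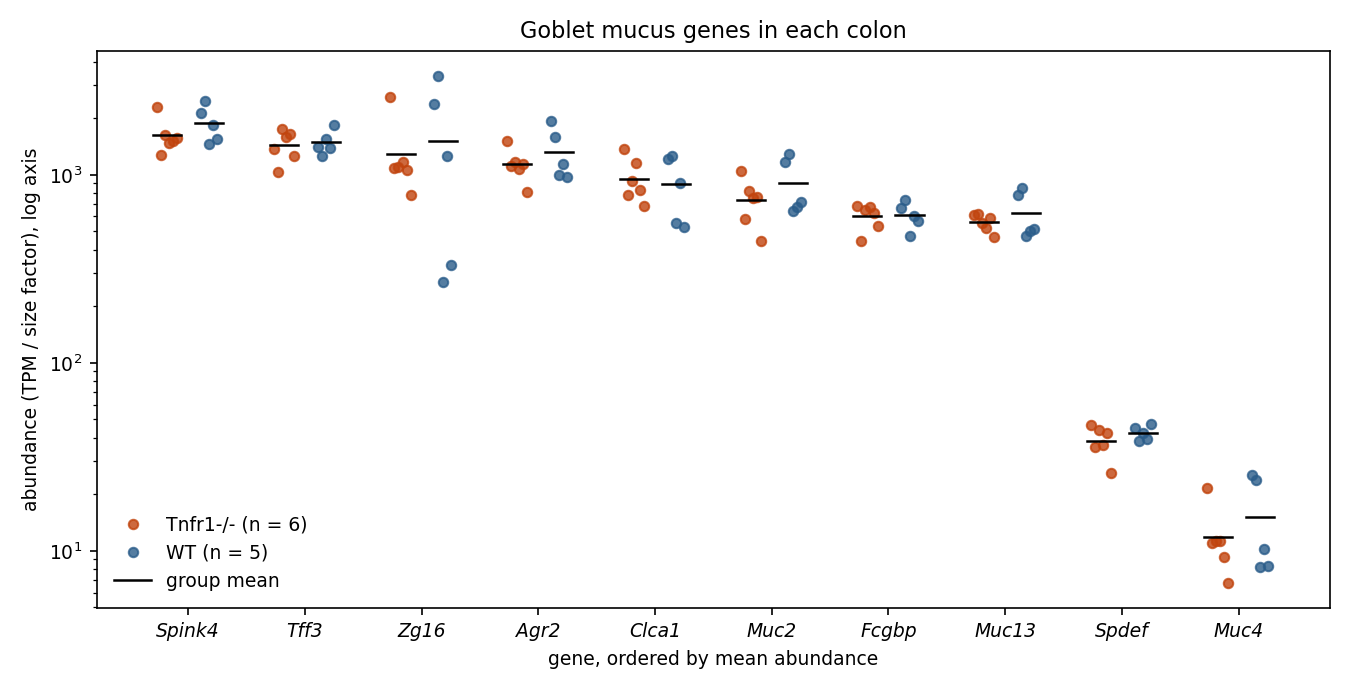
Abundance (TPM scaled by a size factor, log axis) of the 10 goblet mucus genes in each colon, with 6 Tnfr1-/- libraries left of 5 WT libraries for each gene and black lines at group means. The groups overlap for every gene, and Zg16 has the widest spread, between 268 and 3348.

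Muc2 encodes the gel-forming mucin of the colon. It ranged from 443 to 1044 with a median of 756 in the 6 Tnfr1-/- colons, against 1175, 1293, 639, 671 and 716 in WT replicates 1 to 5. Replicate 1 was highest and replicate 6 lowest of the Tnfr1-/- colons, WT replicates 1 and 2 were above all of them, and the other 3 WT colons fell inside the Tnfr1-/- range. Muc2 averaged 734 ± 206 in Tnfr1-/- colons (SD, n = 6) and 899 ± 310 in WT colons (SD, n = 5). Its log2 fold change of -0.28 had an SE of 0.25 (95% interval -0.82 to 0.27, limma adjusted p = 0.756).

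Zg16 encodes a lectin of the mucus that binds the wall of Gram-positive bacteria. It ranged from 781 to 2581 with a median of 1093 in Tnfr1-/- colons, against 2392, 3348, 268, 1265 and 331 in WT replicates 1 to 5. Tnfr1-/- replicate 1 stood above its group, and in WT replicates 1 and 2 were high and replicates 3 and 5 were below every other colon. The WT colons thus spanned a wider range than the Tnfr1-/- colons and enclosed it. The average was 1297 ± 643 in Tnfr1-/- colons (SD, n = 6) and 1521 ± 1337 in WT colons (SD, n = 5), lower in Tnfr1-/-, whereas the log2 fold change was positive at 0.29 (SE 0.64, 95% interval -1.12 to 1.71, limma adjusted p = 0.928). The sign of the difference for Zg16 thus depended on the scale, and the log2 fold change was -0.17 without WT replicate 3 and -0.096 without WT replicate 5.

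Clca1 encodes a metalloprotease of the mucus that cleaves the MUC2 gel. It was between 685 and 1364 with a median of 874 in Tnfr1-/- colons, against 1211, 1253, 553, 906 and 530 in WT replicates 1 to 5. WT replicates 3 and 5, the lowest in Zg16, were also the lowest of all 11 colons in Clca1. Its log2 fold change of 0.15 had an SE of 0.27 (limma adjusted p = 0.898), and without WT replicate 5 it was -0.0090. Fcgbp encodes a large secreted protein that is bound to the mucin network. It was between 444 and 685 with a median of 639 in Tnfr1-/- colons, against 667, 738, 475, 604 and 567 in WT replicates 1 to 5. It varied least of the 10 genes, with a 1.66-fold difference between the highest and lowest colon, and the groups were close to each other (log2 fold change -0.02, 95% interval -0.32 to 0.28, limma adjusted p = 0.978).

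Tff3 encodes a small trefoil peptide that goblet cells release with mucin and that aids repair of the epithelium. It was between 1039 and 1745 with a median of 1481 in Tnfr1-/- colons, against 1403, 1255, 1548, 1380 and 1836 in WT replicates 1 to 5. Here the order of the WT colons was another one: replicate 5 was highest and replicate 2 lowest. The log2 fold change was -0.05 (95% interval -0.36 to 0.26, limma adjusted p = 0.946). Spink4, a Kazal-type protease inhibitor found in goblet cells, was between 1277 and 2285 with a median of 1538 in Tnfr1-/- colons, against 2126, 2453, 1454, 1844 and 1542 in WT replicates 1 to 5. Tnfr1-/- replicate 1 and WT replicates 1 and 2 were the 3 highest, and the groups overlapped. Spink4 came closest to the threshold of the 10 genes (log2 fold change -0.21, SE 0.16, limma adjusted p = 0.724).

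Agr2 encodes a protein disulfide isomerase of the endoplasmic reticulum that MUC2 needs for its assembly. It was between 813 and 1514 with a median of 1130 in Tnfr1-/- colons, against 1934, 1582, 1002, 1136 and 978 in WT replicates 1 to 5. As for Muc2, WT replicates 1 and 2 were above all Tnfr1-/- colons and the other 3 were inside their range (log2 fold change -0.19, SE 0.20, limma adjusted p = 0.796). Spdef encodes the ETS-family factor that drives the maturation of goblet cells. It was between 26.0 and 46.9 with a median of 39.3 in Tnfr1-/- colons, against 45.1, 38.4, 42.5, 39.5 and 47.2 in WT replicates 1 to 5. The WT colons were close together, and Tnfr1-/- replicate 6 was the lowest of all 11 (log2 fold change -0.16, SE 0.13, limma adjusted p = 0.735).

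The membrane mucins split the colons into separate clusters, with a gap of 50.2% of the log2 range for Muc4 and 39.2% for Muc13, against 22.2% for Muc2. The split was not particular to them, with a gap of 34.0% for the secreted Zg16 and 39.6% for the mean of the 10 genes. Muc4 was between 6.79 and 21.7 with a median of 11.1 in Tnfr1-/- colons, against 25.2, 23.8, 8.18, 10.2 and 8.34 in WT replicates 1 to 5. Tnfr1-/- replicate 1 and WT replicates 1 and 2 stood apart from the other 8 colons, all of which were at 11.3 or less. The averages were 11.9 ± 5.13 in Tnfr1-/- colons (SD, n = 6) and 15.2 ± 8.61 in WT colons (SD, n = 5), with a log2 fold change of -0.25 (95% interval -1.04 to 0.54, limma adjusted p = 0.867). Muc13 was between 468 and 616 with a median of 571 in Tnfr1-/- colons, against 779, 851, 470, 502 and 514 in WT replicates 1 to 5. For Muc13 only WT replicates 1 and 2 were high, and Tnfr1-/- replicate 1, at 608, was level with its group (log2 fold change -0.12, 95% interval -0.47 to 0.23, limma adjusted p = 0.86).

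Per length and summed over transcripts, most of the 10 genes were among the most abundant RNAs of the colon wall. By the transcript with the most reads alone, Clca1, Muc2 (over both IDs) and Fcgbp were lower, at 357, 341 and 118. Among 14917 gene symbols tested, Spink4 ranked 59 with a mean abundance of 1741 over the 11 libraries, Tff3 83 with 1461, Zg16 93 with 1399 and Agr2 118 with 1224. Clca1 ranked 149 with 926, Muc2 169 with 809, Fcgbp 215 with 606 and Muc13 219 with 588. With 1 of its IDs alone Muc2 would be at 404 and rank 294. The regulator Spdef, at 40.3, ranked 3254 and the membrane mucin Muc4, at 13.4, ranked 7586. Together the 10 genes made up between 0.637% and 1.16% of all summed abundance in Tnfr1-/- colons and between 0.629% and 1.28% in WT colons.

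Neighbours at the top of that order were not well separated. Spink4 was above Tff3 in 6 of 11 libraries, Tff3 above Zg16 in 7 of 11 and Zg16 above Agr2 in 5 of 11. Agr2 was above Clca1 in 10 of 11, Clca1 above Muc2 in 8 of 11, Muc2 above Fcgbp in 10 of 11 and Fcgbp above Muc13 in 8 of 11. The steps down to Spdef and to Muc4 held in 11 of 11. The genes also differed in how much they varied: the highest colon had 12.5 times the lowest for Zg16, 3.72 times for Muc4, 2.92 times for Muc2, 2.57 times for Clca1 and 2.38 times for Agr2. For Spink4, Muc13, Spdef and Tff3 the ratio was 1.92, 1.82, 1.82 and 1.77.

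Part of the order depended on short transcripts, which gain abundance per read when values are corrected for length. Clca1 is the clearest case. Its main transcript, ENSMUST00000029919.6 of 3655 bases and 14 exons, took 97.2% of the reads of the gene but 38.6% of its abundance, at 357. A fragment of 261 bases, ENSMUST00000195901.1, took 2.76% of the reads and 61.4% of the abundance. For Fcgbp the full-length ENSMUST00000076648.7 of 7928 bases held 55.2% of the reads and 19.4% of the abundance, at 118. For Muc2 the longest of the 8 transcripts, ENSMUST00000187945.6, had 2926 bases. Others lay at separate places of the locus, such as ENSMUST00000185406.6 at chr7:141690340-141698782. The summed level and rank of Muc2 thus add up pieces of the locus and can count the same RNA more than once. For Muc4 the transcript with the most reads, ENSMUST00000142355.8, held 39.6% of the reads and 11.3% of the abundance, at 1.51. The protein-coding ENSMUST00000135753.1 was nearly level with it, with 39.5% of the reads and 27.3% of the abundance, at 3.65. The longest Muc4 transcript, ENSMUST00000096106.9 of 11277 bases, was at 5.08e-07. Tff3, Agr2, Spink4 and Muc13 were each carried by a transcript with at least 98.7% of both. When each gene was represented by the transcript with the most reads, Muc13, at 581, moved from place 8 to place 5 and Clca1, Muc2 and Fcgbp moved down to places 6, 7 and 8. Agr2, at 1216, moved from place 4 to place 3, and Zg16, at 1181, from place 3 to place 4.

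**Figure D2:**
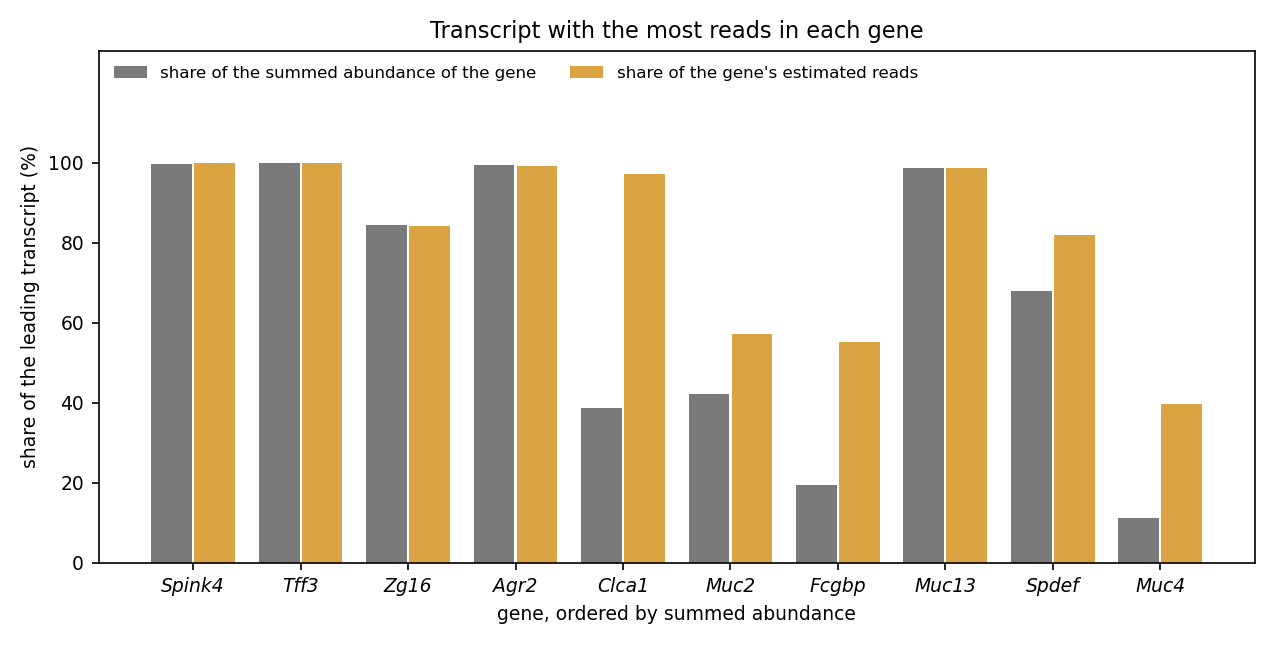
Share (%) of summed abundance (grey) and of estimated reads (yellow) held by the transcript with the most reads in each goblet mucus gene, over all 11 libraries. The bars are level for 5 genes and far apart for Clca1, where the transcript holds 97.2% of the reads but 38.6% of the abundance.

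Of the 41 transcripts of the 10 genes, 27 were tested and 0 were called by limma, where 0.00901% of 33294 transcripts were called. At an unadjusted p under 0.05 there was 1 of 27, against 8.26% of all transcripts tested. The smallest limma adjusted p was 0.579, for a processed transcript of Spink4 of 223 bases, ENSMUST00000132943.1 (4.31 ± 1.14 in Tnfr1-/- colons, n = 6, and 2.74 ± 0.951 in WT colons, n = 5, SD, both groups overlapping), which made up 0.207% of the abundance of the gene. Muc2 reads were shared mainly by a pair of transcripts that overlap at the 3' end of the locus. The shorter one, ENSMUST00000026590.8 with 16 exons (chr7:141746832-141754690), was at 147 ± 46.2 in Tnfr1-/- colons (SD, n = 6) and 214 ± 70.0 in WT colons (SD, n = 5), with a log2 fold change of -0.54 (limma adjusted p = 0.627). The longer one, ENSMUST00000187945.6 with 19 exons (chr7:141744612-141754693), was at 163 ± 44.9 in Tnfr1-/- colons (SD, n = 6) and 179 ± 78.1 in WT colons (SD, n = 5), with a log2 fold change of -0.08 (limma adjusted p = 0.963). The ratio of the shorter to the longer one was between 0.778 and 1.05 in Tnfr1-/- colons, against 1.41, 0.863, 1.44, 0.967 and 1.64 in WT replicates 1 to 5. The ratio was highest in WT replicates 1, 3 and 5, and the groups overlapped. With single-end reads of 75 bases, how reads divide between overlapping transcripts is uncertain. The authors' own test also covered 27 transcripts of these genes, but not the same ones. It held ENSMUST00000140004.1 of Fcgbp, which was not tested by limma, and had no p-value for ENSMUST00000132943.1 of Spink4. In that test the shorter Muc2 transcript had the smallest p of the authors' 27 (p = 0.0586, q = 1, log2 fold change -0.54). Of these, 0 had a q under 0.05, against 0.00201% of 49810 transcripts in the authors' deposited table.

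Promoter windows (250 bases before to 50 after the gene start, RefSeq, GRCm38.p6) were at hand for 6 of the 10 genes: Muc2, Fcgbp, Agr2, Spdef, Muc4 and Muc13, the last with 2 windows. They are shown for Muc2, the mucin that the group is named for, for Fcgbp, which has the same E-box as Muc2, and for Agr2 and Muc4, whose levels followed Muc2 across the colons. Capitals mark the E-box CAGCTG, which reads the same on both strands, the TATA box TATAAA, and the CDX-type motif TTTATG or, on the other strand, CATAAA. The windows are Muc2 at chr7:141690090-141690389 (plus strand), Fcgbp at chr7:28070986-28071285 (plus strand), Agr2 at chr12:35992675-35992974 (plus strand) and Muc4 at chr16:32735636-32735935 (plus strand).
Muc2: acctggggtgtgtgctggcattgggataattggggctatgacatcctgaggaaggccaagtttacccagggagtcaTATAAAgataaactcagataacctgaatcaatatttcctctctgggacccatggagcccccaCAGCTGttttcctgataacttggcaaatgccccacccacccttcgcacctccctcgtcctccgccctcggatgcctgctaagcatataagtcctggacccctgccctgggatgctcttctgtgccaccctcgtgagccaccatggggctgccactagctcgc
Fcgbp: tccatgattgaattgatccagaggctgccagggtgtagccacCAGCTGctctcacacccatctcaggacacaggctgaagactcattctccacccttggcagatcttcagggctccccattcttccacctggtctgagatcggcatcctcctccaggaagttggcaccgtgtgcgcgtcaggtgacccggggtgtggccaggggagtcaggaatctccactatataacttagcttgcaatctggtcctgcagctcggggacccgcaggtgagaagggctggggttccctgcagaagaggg
Agr2: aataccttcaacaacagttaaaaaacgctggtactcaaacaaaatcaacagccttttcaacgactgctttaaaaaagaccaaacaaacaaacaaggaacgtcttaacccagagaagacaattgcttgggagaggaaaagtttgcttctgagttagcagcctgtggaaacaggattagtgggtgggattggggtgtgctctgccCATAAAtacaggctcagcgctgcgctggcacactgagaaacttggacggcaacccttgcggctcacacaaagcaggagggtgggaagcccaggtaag
Muc4: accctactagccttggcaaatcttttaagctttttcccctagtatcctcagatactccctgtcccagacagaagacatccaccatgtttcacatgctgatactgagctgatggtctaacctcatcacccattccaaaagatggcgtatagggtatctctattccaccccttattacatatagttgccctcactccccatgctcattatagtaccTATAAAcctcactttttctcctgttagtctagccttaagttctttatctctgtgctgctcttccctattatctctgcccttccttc

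CAGCTG was found 112 bases before the start in Muc2 and 208 before it in Fcgbp, and 16.3% of 32851 mouse promoter windows hold it. TATAAA was found 36 bases before the start in Muc4 and 174 before it in Muc2 (13.6% of all windows). The CDX-type motif was found 47 bases before the start in Agr2, and also in Spdef and Muc13 (11.9% of all windows). The FOXA motif TGTTTAC was found in 0 of the 7 windows (3.65% of all windows). The ETS cores GGAT and GGAA were in 7 of 7 windows each, but also in 79.6% and 96.0% of all windows. All motifs were searched on both strands. TATAAA and CATAAA share ATAAA but cannot match at the same place, and matches of GGAT and GGAA can overlap on opposite strands. A match describes these letters and not the binding of a factor.

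Most goblet mucus genes went up and down together across the 11 colons, also after removal of the group means (median r of 0.58 over the 21 pairs of genes described below). Tnfr1-/- replicate 1 and WT replicates 1 and 2 were the 3 highest colons in Muc2, Agr2, Zg16, Spink4, Clca1 and Muc4. Tnfr1-/- replicate 6 was the lowest colon in Muc2, Agr2, Spdef, Muc4 and Muc13. The mean of the 10 genes itself split the colons, with those 3 above a gap of 39.6% of its range. Over the other 8 colons, the correlation of each gene with that mean, in which it is itself counted and from which group means were removed, was 0.90 for Muc2, 0.86 for Agr2, 0.81 for Muc4, 0.75 for Clca1, 0.74 for Fcgbp and 0.73 for Spdef. It was 0.52 for Tff3, 0.52 for Muc13 and 0.46 for Spink4.

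**Figure D3:**
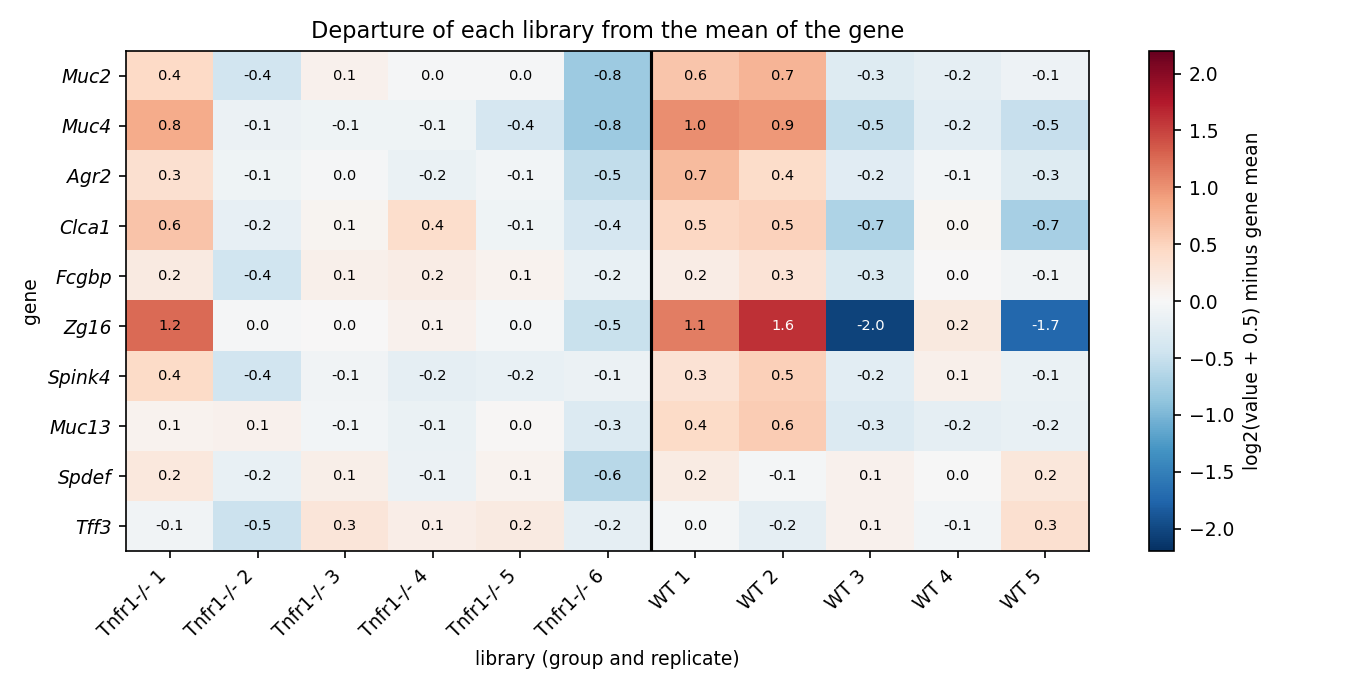
Departure of each library from the mean of a gene, as log2(value + 0.5) minus the gene mean, with genes ordered by their likeness to the mean of all 10 over the 11 libraries and a black line between the 6 Tnfr1-/- and the 5 WT libraries. Tnfr1-/- 1, WT 1 and WT 2 are red in most rows, and Tff3 in the bottom row has another order.

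For Zg16, Muc4 and Muc13 the colons fell into separate clusters, with a gap of over 33.3% of the range, so that correlations with Muc4 and Muc13 are given over 8 colons only and none with Zg16. The other 7 genes make 21 pairs. Over these the median Pearson r of log2 values was 0.61, from -0.25 (Clca1 and Tff3) to 0.91 (Muc2 and Agr2), and 9 of 21 had a permutation p under 0.05 after adjustment over all 45 pairs. Muc2 and Agr2 had r = 0.91 and Spearman's rho = 0.87 (n = 11, 100000 permutations, p = 0.00025 and 0.001, adjusted p = 0.0026 and 0.0069). Without the 2 colons farthest from the median of Muc2 that r was 0.88, and within the 6 Tnfr1-/- colons it was 0.92. Fcgbp and Clca1 had r = 0.78 and rho = 0.89 (permutation p = 0.005 and 0.00065, adjusted p = 0.016 and 0.0058), and r = 0.87 without the 2 farthest colons.

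Tff3 was the clearest exception. The 15 pairs without it had a median r of 0.73, and the 6 pairs with it a median of -0.0096. Its r with Muc2 was 0.10 (rho = 0.22, permutation p = 0.76 and 0.52, adjusted p = 0.78 and 0.64) and with Spdef 0.54 (rho = 0.61, permutation p = 0.088 and 0.051, adjusted p = 0.13 and 0.088). In the 8 colons outside the 3 with the most Muc4, the r of Muc2 and Tff3 was 0.72. Spdef was also loosely tied over all 11 colons. Its r was lowest with Clca1, at 0.14 (rho = 0.10, permutation p = 0.69 and 0.77, adjusted p = 0.74 and 0.81). It was highest with Muc2, at 0.62 (rho = 0.48, permutation p = 0.039 and 0.14, adjusted p = 0.065 and 0.21).

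Some of the co-variation rested on the 3 colons with the most Muc4. Over the other 8 colons the median r of the 21 pairs was 0.39, where leaving out the highest colons narrows the range by construction. Muc2 and Agr2 kept an r of 0.78 there, Muc2 and Spdef had 0.84 and Agr2 and Muc4 had 0.87. Agr2 and Spink4 had 0.06 over those 8 colons, against an r of 0.77 over all 11 (rho = 0.67, permutation p = 0.0059 and 0.028, adjusted p = 0.016 and 0.05), and Muc2 and Spink4 had 0.20 against 0.81 (rho = 0.71, permutation p = 0.0025 and 0.018, adjusted p = 0.011 and 0.04).

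Epithelial RNA moved with several of these genes. The summed abundance of 12 epithelial markers, such as Epcam, Cdh1 and Vil1, was 10720 in Tnfr1-/- replicate 1 and between 7561 and 9650 in the other 5 Tnfr1-/- colons, against 11440, 13360, 8191, 8187 and 8639 in WT replicates 1 to 5. The colons high in Muc2 were thus also high in epithelial RNA. Fibroblast markers summed to 2043 in Tnfr1-/- replicate 1 and to between 2189 and 3120 in the other 5 Tnfr1-/- colons, against 1680, 1655, 2439, 3700 and 2548 in WT replicates 1 to 5, and so were lowest in the same 3 colons. Smooth muscle markers were not. They summed to 8234 in Tnfr1-/- replicate 1 and to between 6681 and 8963 in the other 5, against 7396, 4642, 7556, 12150 and 5556 in WT replicates 1 to 5. All 12 epithelial markers were lower in Tnfr1-/-, with a median log2 fold change of -0.14, and 0 of 12 were called. With the mean of the epithelial markers, Agr2 had r = 0.90 (rho = 0.86, permutation p = 0.00031) and Muc2 had r = 0.86 (rho = 0.77, permutation p = 0.00042), whose adjusted p over the 10 genes was 0.001 for each r. Over the 8 colons outside the 3 with the most Muc4, the r with the epithelial mean was 0.95 for Muc13, 0.71 for Agr2, 0.65 for Muc4 and 0.37 for Muc2. There it was 0.36 for Spdef, 0.22 for Clca1, -0.16 for Fcgbp and -0.24 for Tff3. Spink4 had r = 0.76 over all 11 (rho = 0.54, permutation p = 0.0079, adjusted p = 0.013) and -0.48 over those 8. Tff3 had r = -0.36 (rho = -0.19, permutation p = 0.28, adjusted p = 0.31) and Spdef had r = 0.32 (rho = 0.30, permutation p = 0.34, adjusted p = 0.34).

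When the mean of the epithelial markers was a covariate in the limma fit, 0 of 10 genes were called, where 0.0265% of all genes were. The difference was positive for 5 genes and negative for 5, with a median of 0.016 against -0.011 over all genes. Zg16 was at 0.86 on the log2 scale (SE 0.36, 95% interval 0.05 to 1.67, limma adjusted p = 0.274), the 1 gene of 10 with an unadjusted p under 0.05, a level that 16.9% of all genes reached. Clca1 was at 0.36 (SE 0.18, limma adjusted p = 0.354). Muc2 was at -0.06 (SE 0.15, limma adjusted p = 0.863) and Muc13 at 0.04 with a narrow 95% interval of -0.06 to 0.14.

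**Figure D4:**
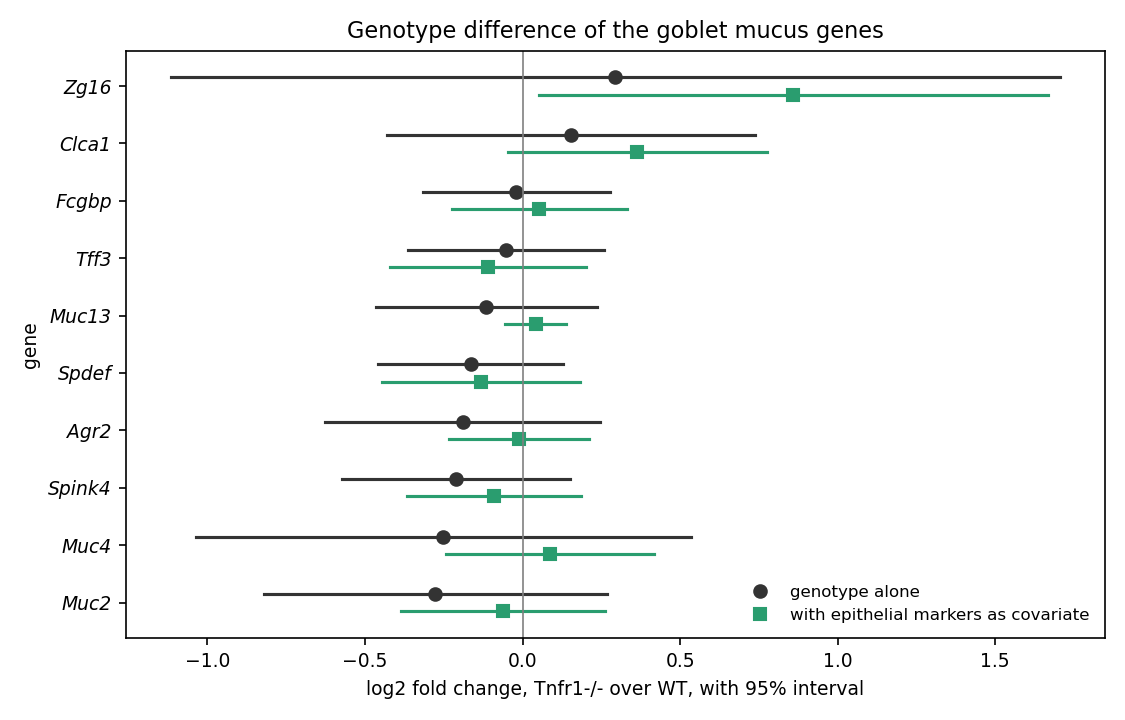
Log2 fold change (Tnfr1-/- over WT) of the 10 goblet mucus genes with 95% intervals from limma, for genotype alone (black circles) and with the mean of 12 epithelial markers as a covariate (green squares). The intervals for genotype alone all include 0, and with the covariate that of Zg16, 0.05 to 1.67, does not.

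Some genes listed as other goblet cell effectors were also low in WT replicates 3 and 5, where Zg16 was lowest. So were a few colonocyte and epithelial markers. Of the 16 listed effectors tested, 4 (Clca4a, Lypd8, Sytl2 and Retnlb) had these as their 2 lowest colons, as did 4.64% of the 15079 genes tested, and 12 did not. The colonocyte markers Car4 and Aqp4 and the epithelial marker Krt20 also had WT replicates 3 and 5 lowest, and the others of both lists did not. In whole-wall samples the cells that held these RNAs cannot be told. Itln1, which encodes the lectin intelectin, was at 1.70 and 1.56 in that pair, above all but 1 of the other colons. Retnlb, which encodes the antibacterial protein RELM-beta, was between 23.2 and 55.5 in Tnfr1-/- colons, against 225, 196, 8.59, 46.9 and 3.51 in WT replicates 1 to 5. Clca4a, a relative of Clca1, was between 6.82 and 28.6 in Tnfr1-/- colons, against 75.2, 79.7, 2.37, 14.4 and 4.33 in WT replicates 1 to 5. Both genes were thus lowest where Zg16 and Clca1 were lowest. The colonocyte marker Car4 had a like order, between 5.49 and 53.7 in Tnfr1-/- colons, against 81.5, 137, 3.69, 12.1 and 2.55 in WT replicates 1 to 5. Retnlb, Clca4a, Lypd8, Sytl2, Itln1, Car4, Aqp4 and Krt20 were named, and the count was made, after their values were seen. The enteroendocrine markers were highest in the same pair, with a sum between 326 and 410 in Tnfr1-/- colons, against 350, 355, 482, 398 and 538 in WT replicates 1 to 5. Whether other cell types had a part in these low values was not tested.

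Around the 10 genes, 0 genes of 5 further lists were called by limma over all genes. Of 15 other mucins 4 were tested, Muc1, Muc3, Muc3a and Muc15, with a median log2 fold change of 0.08 and 0 at an unadjusted p under 0.05. Only 11 of the 15 symbols were found in the deposited table. The mucins not tested, among them the gastric and airway gel-forming Muc5ac and Muc5b, either did not pass the filter or had no values under that symbol. The membrane mucin Muc3 was at 320 ± 115 in Tnfr1-/- colons (SD, n = 6) and 328 ± 162 in WT colons (SD, n = 5). Its sum with the other tested mucins was high in 4 colons, at 550 and 500 in Tnfr1-/- replicates 1 and 2 and 537 and 603 in WT replicates 1 and 2, against at most 367 elsewhere. Muc3a was at 38.2 ± 8.51 in Tnfr1-/- colons (SD, n = 6) and 42.8 ± 5.31 in WT colons (SD, n = 5), with a limma adjusted p of 0.74.

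Of 22 genes listed as other goblet cell effectors 16 were tested, 7 higher and 9 lower. Their median was -0.03, with 1 at an unadjusted p under 0.05 (4.2% of all genes were higher at that level). That was Best2, a chloride and bicarbonate channel of colonic goblet cells, at 24.7 ± 4.47 in Tnfr1-/- colons (SD, n = 6) and 17.98 ± 4.56 in WT colons (SD, n = 5), with a log2 fold change of 0.46 (SE 0.17, limma adjusted p = 0.451). Clca4b was at 26.4 ± 7.45 in Tnfr1-/- colons (SD, n = 6) and 72.5 ± 64.3 in WT colons (SD, n = 5), with a log2 fold change of -1.03 (limma adjusted p = 0.54). WT replicates 1 and 2, at 103 and 172, stood above the other 3 WT colons, at 22.1 to 36.8, and the log2 fold change was -0.61 without WT replicate 2 and -0.16 without both. Guca2a, which encodes guanylin, was at 865 ± 207 in Tnfr1-/- colons (SD, n = 6) and 1084 ± 207 in WT colons (SD, n = 5), with a limma adjusted p of 0.563. The potassium channel gene Kcnma1 was at 6.12 ± 0.320 in Tnfr1-/- colons (SD, n = 6) and 5.38 ± 1.43 in WT colons (SD, n = 5), with a limma adjusted p of 0.65.

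Genes that build and sulfate the sugars of mucins made up a list of 32, of which 31 were tested. They had a median of -0.07, with 11 higher and 20 lower. An unadjusted p under 0.05 was found for 1 of those higher and 2 of those lower, where 4.2% of all genes were higher and 5.17% lower at that level. Gcnt4, a branching enzyme of O-glycans, was at 3.38 ± 0.297 in Tnfr1-/- colons (SD, n = 6) and 4.39 ± 0.377 in WT colons (SD, n = 5). Its groups did not overlap, as for 1.49% of all genes (log2 fold change -0.34, SE 0.08, limma adjusted p = 0.289). Papss1, which makes the sulfate donor PAPS, was at 89.1 ± 5.57 in Tnfr1-/- colons (SD, n = 6) and 79.7 ± 2.98 in WT colons (SD, n = 5), with a log2 fold change of 0.16 (limma adjusted p = 0.398). Galnt1, an enzyme that starts O-glycans, had a log2 fold change of -0.11 (limma adjusted p = 0.517), and B4galnt2, which adds the terminal sugar of the Sda antigen, one of -0.27 (limma adjusted p = 0.618).

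Genes of mucin folding, granules and release, 22 of 22 tested, had a median of -0.03, with 8 higher and 14 lower and 1 each way at an unadjusted p under 0.05, against 4.2% of all genes higher and 5.17% lower. The calpain Capn8 was at 12.4 ± 1.56 in Tnfr1-/- colons (SD, n = 6) and 10.1 ± 1.04 in WT colons (SD, n = 5), with a limma adjusted p of 0.404. Nlrp6, an inflammasome sensor that mice need for normal goblet cell secretion, was at 43.8 ± 7.45 in Tnfr1-/- colons (SD, n = 6) and 53.7 ± 5.497 in WT colons (SD, n = 5), with a log2 fold change of -0.30 (limma adjusted p = 0.475). The Golgi calcium pump gene Atp2c2 had a log2 fold change of 0.17 and Stxbp2, which acts in granule fusion, one of -0.16 (limma adjusted p = 0.588 and 0.684).

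Among 17 regulators of the goblet lineage, all tested, 8 were higher and 9 lower, with a median of -0.04, 0 called, and 2 each way at an unadjusted p under 0.05, where all genes had 4.2% higher and 5.17% lower. Cdx2, the homeobox factor that sets intestinal fate, was between 55.7 and 92.4 in Tnfr1-/- colons and between 102 and 129 in WT colons. Its groups did not overlap, as for 1.49% of all genes, and it had a log2 fold change of -0.60 (SE 0.12, limma adjusted p = 0.289). Foxa2, a factor upstream of Muc2 in mice, was at 17.1 ± 1.75 in Tnfr1-/- colons (SD, n = 6) and 13.2 ± 2.61 in WT colons (SD, n = 5), with a limma adjusted p of 0.422. Notch1, whose signal holds back secretory fate, was at 9.45 ± 1.87 in Tnfr1-/- colons (SD, n = 6) and 7.03 ± 1.08 in WT colons (SD, n = 5), with a limma adjusted p of 0.433. Neurog3, the factor that starts the enteroendocrine lineage, was at 0.790 ± 0.235 in Tnfr1-/- colons (SD, n = 6) and 1.28 ± 0.213 in WT colons (SD, n = 5), with a limma adjusted p of 0.398. Atoh1, which opens the secretory lineage and was named after its values were seen, was at 19.7 ± 3.74 in Tnfr1-/- colons (SD, n = 6) and 22.4 ± 1.77 in WT colons (SD, n = 5), with a limma adjusted p of 0.646.

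Markers of other cell types of the colon wall were measured as well, and 0 of them were called. The sum of 9 smooth muscle genes was 7485 ± 940 in Tnfr1-/- colons (SD, n = 6) and 7460 ± 2897 in WT colons (SD, n = 5). The sum of 10 colonocyte genes was 1922 ± 188 in Tnfr1-/- colons (SD, n = 6) and 2414 ± 494 in WT colons (SD, n = 5), with 9 of the 10 lower in Tnfr1-/- and 3 of them at an unadjusted p under 0.05. All 7 markers of squamous epithelium, the kind that lines the anal canal, were higher in Tnfr1-/- colons, with a median log2 fold change of 0.50. Their sum was between 249 and 1283 in Tnfr1-/- colons and between 446 and 675 in WT colons. All 8 enteroendocrine markers were lower in Tnfr1-/- colons, with a median log2 fold change of -0.25 and 3 of 8 at an unadjusted p under 0.05, where 5.17% of all genes were lower at that level. Sums in Tnfr1-/- and WT colons overlapped for fibroblast, enteroendocrine, tuft and immune cell markers. Pancreatic acinar genes reached no more than 0.576 in any library. The part of these cell types in the values of the 10 genes was not tested beyond the epithelial covariate.

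Outside the group, 10696 genes whose mean abundance reached 5 were compared with the mean of the 10 genes, after removal of group means, over the 11 libraries. The closest 10, given with their r over the 8 colons outside the 3 with the most Muc4, were Galnt12 (r = 0.94), Hgfac (r = 0.94), Kdelr1 (r = 0.94), Klk1 (r = 0.92), Cxcl16 (r = 0.89), Ggh (r = 0.91), H2-K1 (r = 0.85), Nuak2 (r = 0.90), Slc35a1 (r = 0.78) and Tsta3 (r = 0.88). The genes closest to Muc2 were H2-K1, Tgoln1 and Kdelr1 (r = 0.92, 0.91 and 0.92 over the 8 colons), and those closest to Muc4 were Ifi27l2b, Tm9sf1 and Tcaf2 (r = 0.89, 0.82 and 0.82). These genes were the highest of many over 11 libraries that include the 3 high colons, and their values are given as a description. None of these genes was called between the groups, with limma adjusted p from 0.504 for Ggh to 0.976 for Klk1.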

How the data were processed

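RNA of 11 colons, 6 Tnfr1-/- and 5 WT, was sequenced as stranded mRNA libraries read for 75 bases from 1 end, per the labels' protocols. CASAVA, kallisto, sleuth and build mm10 are named without versions, per the submitters' processing notes. The authors deposited 1 table of 113991 lines for 113193 distinct transcripts; repeated lines held equal values and were kept once. The signal that the authors deposited for a sample was read, from its values, as TPM scaled by a size factor in the form of sleuth, since columns sum to between 934563 and 1055498. The authors deposited p-values and q-values of their own test, a log2 fold change, and a mean of natural log estimated counts, per the file headers, from which read numbers per gene were approximated.

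Values were summed per Ensembl gene (35683). Genes with a value of at least 1 in at least 5 libraries were tested with limma 3.58.1 in R 4.3.3 (trend on the mean) on log2(value + 0.5), two-sided, with Benjamini-Hochberg adjustment and calls under 0.05. Fold changes are on that scale, which understates those of low genes. Correlations used log2(value + 0.5) and 100000 permutations (scipy 1.17.1). Tables were read with pandas 2.3.3 in Python 3.11.15, and figures were drawn with matplotlib 3.10.9. The fit was tested on simulated data.

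The 10 genes and all lists were chosen with earlier results of these data known. Named genes are the 10, Tnfrsf1a, up to 4 genes of smallest p per functional list described, and the genes most like the group; others are said to be chosen after their values were seen. For marker lists of other cell types, sums are given in place of single genes, except for Car4, Aqp4 and Krt20. Alternatives were other pseudocounts and filters, quantile normalization, rescaling to TPM, the epithelial covariate, weights by sample quality, a block for the replicate number and leaving out libraries. The representation by a single transcript, the sum of gene IDs that share a symbol, and the correlation without the 3 colons with the most Muc4 were added after seeing the data. Protein sequences and promoters of Clca1, Zg16, Tff3 and Spink4 were not used here.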

Additional observations from a re-analysis of the deposited data

Results flagged for a closer look

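Of 22 groups of values checked (the 10 goblet mucus genes and Tnfrsf1a, each in 2 genotypes), 3 held a library set well apart from the others. For normally distributed values chance gives about 1 in 20 groups, or 1.1. The check used abundances without logs, where high values stand further apart than on the log2 scale of the fits. How many would be flagged on the log2 scale was not tested. All 3 were Tnfr1-/- replicate 1. In that library Zg16 was at 2581, above the other 5 Tnfr1-/- colons, the nearest at 1169, Spink4 was at 2285, with the nearest at 1621, and Muc4 was at 21.7, with the nearest at 11.3. These values are not independent, since the genes were measured in the same colon.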

How the results depend on the processing

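The absence of calls among the goblet mucus genes held in all settings run: 0 of 10 genes were called under 22 alternatives each, with a lowest limma adjusted p of 0.251, and 0 of their transcripts. Over all genes 1 was called, except 3 with sample quality weights, 4 with the epithelial covariate, and between 1 and 2 when single libraries were left out (2 without WT replicate 1). Against 3 called transcripts, leaving out single libraries gave between 1 (Tnfr1-/- replicates 3 and 5, WT replicate 1) and 10 (WT replicate 2), with 6 without WT replicate 4 or 5.

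Signs moved more easily. The median log2 fold change of the 10 genes ran from -0.19 to -0.03 when single libraries were left out, and was 0.03 with sample quality weights, 0.016 with the epithelial covariate and 0.12 without both of WT replicates 1 and 2. Without that pair Muc2 was at 0.071, Fcgbp at 0.13, Agr2 at 0.11, Muc4 at 0.32 and Muc13 at 0.17. With sample quality weights Fcgbp was at 0.15, Agr2 at 0.017, Muc4 at 0.15 and Muc13 at 0.045, and with the covariate Fcgbp was at 0.054, Muc4 at 0.088 and Muc13 at 0.042. Leaving out single libraries gave -0.11 to 0.065 for Fcgbp, -0.0090 to 0.30 for Clca1, -0.17 to 0.74 for Zg16, -0.11 to 0.038 for Tff3, -0.21 to 0.0080 for Muc13, -0.0032 to 0.26 for Muc1 and -0.11 to 0.24 for Muc3. The causes were not tested.

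With the transcript of most reads alone, mean abundance was 341 for Muc2, 118 for Fcgbp, 357 for Clca1, 27.4 for Spdef and 1.51 for Muc4. The median r of the 21 pairs was between 0.57 and 0.67 when single libraries were left out, 0.46 after removing the epithelial mean and 0.39 without the 3 colons with the most Muc4.

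Replicate numbers are shared by both genotypes but did not pair the colons: same-numbered colons had correlations of 0.274, -0.0060, 0.383, -0.223 and 0.333. With the replicate number as a block 1 gene was called and 0 of the 10, and Fcgbp was at 0.013. Tnfr1-/- replicate 6 has no WT partner and adds nothing to that fit.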
